A study of Homo sapiens with 6 samples.

Results

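The AP-2 genes TFAP2A, TFAP2B, TFAP2C, TFAP2D and TFAP2E and the KCTD genes KCTD1 and KCTD15 were followed in A375 cells, an established human line from a malignant melanoma, given panobinostat, an inhibitor of histone deacetylases. One group of 3 libraries came from parental A375 cells exposed to 50 nM panobinostat for 24 h, and the vehicle group of 3 libraries from parental A375 cells given the same volume of PBS for 24 h. All 7 genes were found by symbol among 25343 gene lines of the count table. They are a family taken by name, but the set was picked from results in which TFAP2B and KCTD15 fell with panobinostat, so it was chosen on the contrast described here. Their fold changes are therefore given as a description, with no p-value, and the calls that the fit across all genes made on them are counted once, beside its share of calls, and support nothing. A375 is a single cell line, and nothing in the labels says whether the libraries of a group came from separate cultures. In these bulk libraries fewer cells of a type and less RNA per cell cannot be told apart.

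AP-2 proteins are transcription factors that bind GC-rich DNA as dimers, through a carboxy-terminal part that holds the DNA-binding and dimerization regions, and activate through a more variable amino-terminal part. They act in the neural crest, the embryonic source of melanocytes, and in surface ectoderm and its skin derivatives. KCTD1 and KCTD15 are BTB-domain proteins that bind AP-2 factors and inhibit their transcriptional activity. KCTD15 restrains neural crest formation in vertebrate embryos.

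Sequence places the genes before their levels are read. Translated from the longest coding sequence of each gene in GENCODE 29, the 5 AP-2 proteins were 52.8% to 76.7% identical over 10 pairs. Identity was 62.0% to 83.7% over the last 200 residues and 40% to 70.4% before them. TFAP2A and TFAP2B were the closest pair, and TFAP2C and TFAP2D the farthest. KCTD1 and KCTD15 were 77.4% identical over 283 aligned residues. The KCTD1 protein used had 865 residues and that of KCTD15 283, so much of KCTD1 lay outside the alignment. At the level of RNA, the longest transcript of each gene had no exact run of 50 bases or more in common with another of the 7 genes. Runs of that length were shared with antisense transcripts alone, over 7.47% of TFAP2A and 2.38% of TFAP2E.

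Promoter sequence was matched in RefSeq (GRCh38.p14) for 5 of the 7 genes, all but TFAP2C and KCTD15. The first pair below is printed in full because it sets a detected AP-2 gene beside one with no counts. TFAP2A is the AP-2 gene above 1 CPM that was higher with panobinostat, and TFAP2D had no count in any library although it is the nearest gene measured beside TFAP2B. Each line is the stretch of 250 bases before a start site, 5′ to 3′ on the gene's strand, with matches to the CCAAT box (CCAAT) and the TATA box (TATAAA), on either strand, in capitals.
TFAP2A, chr6:10419660-10419909, minus strand: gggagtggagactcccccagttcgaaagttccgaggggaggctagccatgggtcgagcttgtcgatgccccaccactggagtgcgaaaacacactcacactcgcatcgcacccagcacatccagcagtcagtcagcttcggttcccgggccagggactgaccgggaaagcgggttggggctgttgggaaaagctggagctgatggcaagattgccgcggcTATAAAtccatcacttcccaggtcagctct
TFAP2D, chr6:50713276-50713525, plus strand: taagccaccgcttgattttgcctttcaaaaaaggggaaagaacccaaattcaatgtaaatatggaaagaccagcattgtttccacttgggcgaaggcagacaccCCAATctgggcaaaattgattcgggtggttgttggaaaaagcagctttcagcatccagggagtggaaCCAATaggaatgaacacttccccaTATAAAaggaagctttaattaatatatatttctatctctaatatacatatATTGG

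In TFAP2A the TATA box spanned bases 30 to 25 before the start. In TFAP2D it spanned bases 55 to 50. GC content was 59.6% before this start of TFAP2A, 39.2% for TFAP2D and 40.8% for TFAP2B, against a median of 58.0% over 35116 RefSeq promoters of the same length. The second RefSeq start of TFAP2A, not printed, had 71.2% GC and no match to either box. TFAP2B, the gene that was lowest relative to vehicle, had a CCAAT box at bases 45 to 41 before its RefSeq start. It also had a TATA box match at bases 202 to 197. Short stretches of 30 bases are printed for the CCAAT match of TFAP2B. They are also printed for the matches of KCTD1 to the AP-2 motif (GCCNNNGGC), because KCTD1 is itself an AP-2 regulator. The matched letters are in capitals.
TFAP2B CCAAT box, chr6:50818814-50818843, plus strand: tatcccccatttCCAATtatagatggatca
KCTD1 second start, chr18:26549871-26549900, minus strand: gcctgggcgcGCCGGGGGCgggcgtttggc
KCTD1 next start, chr18:26549534-26549563, minus strand: ggagggcggcGCCCTGGGCgggtggggaag

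The AP-2 motif was found in 19.8% of all promoters, the CCAAT box in 32% and the TATA box in 10.7%. KCTD1 has 4 RefSeq starts, and those not printed had no AP-2 match. At those printed the AP-2 match overlaps a GC box (GGGCGG), a motif present in 42.6% of promoters. None of the AP-2 genes' own 5 promoter windows held the AP-2 letters. These are matches of letters, and binding was not measured.

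Before the values of the genes, the libraries were checked. Counts per library summed to 32293283 to 38944399. The libraries of a group differed by more than sampling noise, with a chi-square of 1.90 to 9.14 per degree of freedom, so no pair had the agreement of 1 library sequenced again. Of the melanoma markers, SOX10 stood at 813 ± 56.3 CPM (SD, n = 3) in vehicle and S100B at 71.9 ± 0.877 CPM, whereas TYR and MLANA had 0 counts in every library and PMEL 0.628 ± 0.118 CPM in vehicle. With panobinostat SOX10 was lower at 368 ± 21.8 CPM and S100B at 11.4 ± 0.575 CPM, and PMEL was higher at 194 ± 9.46 CPM. CPM are counts scaled to a common library size after TMM adjustment. The 7 melanoma markers summed to 4994 to 5202 CPM in vehicle and 2988 to 3129 CPM with panobinostat, most of it VIM, a general mesenchymal gene at 4184 ± 70.5 and 2438 ± 45.6 CPM. Markers of other cell types were summed in the same way, in vehicle and then with panobinostat. Blood markers (4 genes) came to 0.116 to 0.258 and 0.580 to 0.743 CPM, keratinocyte markers (3) to 3.01 to 3.59 and 0.774 to 0.994 CPM, and endothelial markers (3) to 1.5 to 1.84 and 4.86 to 5.52 CPM. Fibroblast markers (3) summed to 13.1 to 15.3 and 29.7 to 30.8 CPM. PTPRC in vehicle and KRT1 in both groups, defining genes of blood cells and of keratinocytes, had 0 counts. The part of these markers in the results was not tested.

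The members tested went in both directions. Of 6 members that passed the low-count filter, edgeR's quasi-likelihood test across 15499 genes called 3 higher and 3 lower with panobinostat at an adjusted p under 0.05. In the same fit 82.8% of all tested genes were called, 41.8% higher and 41.0% lower. Vehicle and panobinostat libraries were fully separated for 6 of these 6 members, their ranges not overlapping, and the same held for 83.4% of all tested genes. Nothing is read from these counts, because the genes were chosen on this contrast. TFAP2E, among the 3 called higher, passed the low-count filter only with panobinostat libraries, so its direction was tied to the filter. TFAP2D was not tested.

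TFAP2B, an AP-2 factor of the neural crest, kidney and limb, stood at 479, 460 and 477 CPM in the vehicle libraries and at 11.4, 10.9 and 11.7 CPM with panobinostat. Every panobinostat library was far below every vehicle library. The counts behind these levels were 15859 to 18568 in vehicle and 379 to 414 with panobinostat. The log2 fold change was -5.38 ± 0.05 (SE, n = 3 per group), a level 41.6 times lower, and it ranked 6 from the bottom of the 15499 genes tested.

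TFAP2C, the AP-2 factor of trophoblast, germ cell precursors and breast epithelium, stood at 322, 322 and 315 CPM in vehicle and at 90.9, 92.3 and 94.3 CPM with panobinostat. The groups were again well apart, but TFAP2C kept more of its vehicle level than TFAP2B did. Its log2 fold change was -1.79 ± 0.04, a level 3.45 times lower.

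TFAP2A, the AP-2 factor of neural crest and epidermis, went the other way. It stood at 19.9, 18.8 and 21.4 CPM in vehicle and at 36.1, 34.9 and 36.5 CPM with panobinostat, with no overlap between the groups. Its log2 fold change was 0.84 ± 0.06, or 1.79-fold. Its antisense partner TFAP2A-AS1 overlaps 380 bases of its exons and had 20 to 23 counts in vehicle and 22 to 28 with panobinostat, against 649 to 826 and 1179 to 1308 counts of TFAP2A. Whether counting used strand is unstated in the labels, so reads of the overlap could belong to either gene. A further antisense gene over TFAP2A, TFAP2A-AS2, was not analysed here.

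TFAP2E, an AP-2 factor described in the olfactory bulb, was near the limit of detection, with 6, 13 and 16 counts in vehicle and 27, 30 and 19 with panobinostat. In CPM this was 0.155, 0.377 and 0.415 against 0.746, 0.820 and 0.588. The groups were close but did not overlap, and vehicle replicate 1 was the lowest library. On the log2 scale the fold change was 1.20 ± 0.32. The vehicle counts of TFAP2E alone would not have passed the low-count filter. TFAP2D, an AP-2 factor described in retina and midbrain, had 0 counts in all 6 libraries, which allows up to 0.0774 to 0.0928 CPM at 3 counts per library. That limit covers counting error only.

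KCTD15, the AP-2 inhibitor tied to neural crest formation, stood at 71.9, 69.2 and 63.5 CPM in vehicle and at 3.43, 2.71 and 2.94 CPM with panobinostat. All panobinostat libraries were far below the vehicle libraries. The log2 fold change was -4.49 ± 0.08, a level 22.5 times lower, and it ranked 20 from the bottom of all tested genes. KCTD1, the closest relative of KCTD15 and also an AP-2 inhibitor, stood at 16.1, 16.5 and 16.4 CPM in vehicle and at 20.1, 20.7 and 19.9 CPM with panobinostat. The difference was small beside that of KCTD15, with a log2 fold change of 0.31 ± 0.06, or 1.24-fold, but the groups did not overlap.

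**Figure D1:**
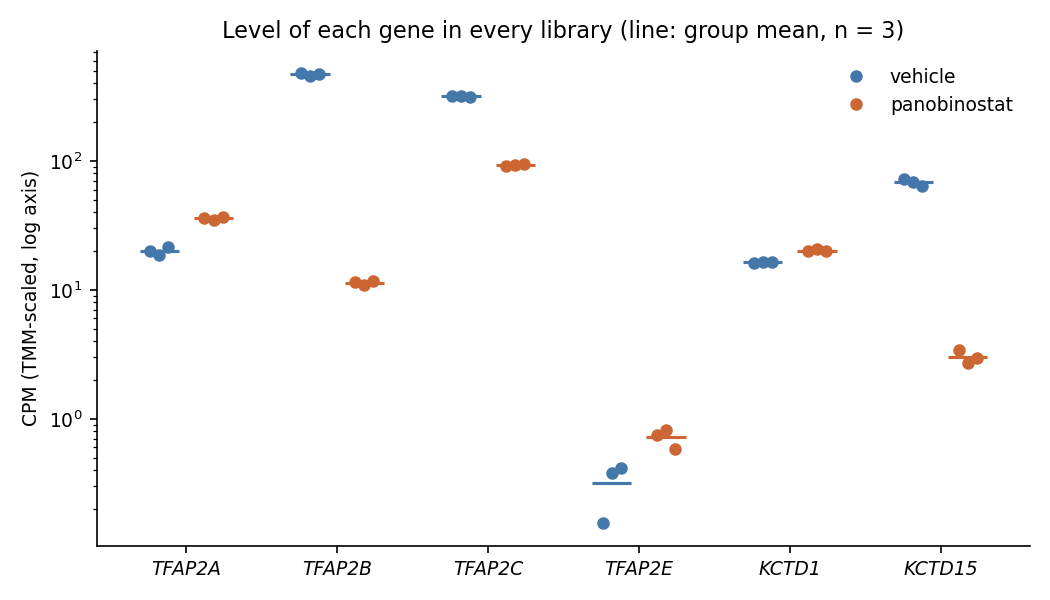
CPM of each gene (log axis) in the 3 vehicle and 3 panobinostat libraries, points for libraries and lines for group means; TFAP2D, with 0 counts, is not drawn. TFAP2B, TFAP2C and KCTD15 sit lower with panobinostat in every library, and TFAP2A, TFAP2E and KCTD1 higher.

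Levels were compared between genes as CPM per kb of merged exons of the coding transcripts in GENCODE 29. In vehicle TFAP2C was the highest at 111 ± 1.42 CPM per kb, then TFAP2B at 81.8 ± 1.87, KCTD15 at 12.8 ± 0.811, TFAP2A at 4.32 ± 0.281, KCTD1 at 3.85 ± 0.0506 and TFAP2E at 0.144 ± 0.0641. Every library of TFAP2A was above every library of KCTD1, with 4.05 against 3.88 CPM per kb at the closest approach. The order of the leading pair depends on the length used, since TFAP2B was above TFAP2C per kb of coding sequence, at 342 ± 7.83 against 237 ± 3.02 CPM per kb. With panobinostat TFAP2C stayed the highest at 32.3 ± 0.594 CPM per kb, and TFAP2A moved to the second place at 7.72 ± 0.176. KCTD1 followed at 4.76 ± 0.0997, TFAP2B at 1.96 ± 0.0768, KCTD15 at 0.568 ± 0.0688 and TFAP2E at 0.328 ± 0.0542. Per kb of coding sequence TFAP2B, at 8.22 ± 0.321, was above KCTD1, at 7.78 ± 0.163. The longest coding sequence was used, 1380 bases for TFAP2B and 2595 for KCTD1, so this order too depends on the length used.

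The summed level of the AP-2 genes was 197.7 ± 1.89 CPM per kb in vehicle and 42.3 ± 0.675 with panobinostat. In vehicle TFAP2C made up 56.4% ± 0.789 of the sum, TFAP2B 41.4% ± 0.667 and TFAP2A 2.18% ± 0.140. With panobinostat TFAP2C made up 76.3% ± 0.436, TFAP2A 18.3% ± 0.341 and TFAP2B 4.64% ± 0.142. TFAP2B and TFAP2A thus changed places within the sum in all 3 libraries of each group. The ratio of TFAP2B to TFAP2A, taken within a library from counts per kb and so free of library scaling, was 19.4, 19.6 and 17.9 in vehicle and 0.254, 0.250 and 0.258 with panobinostat. By coding length the vehicle share of TFAP2B was 57.6% ± 0.633 and that of TFAP2C 39.8% ± 0.763, and the panobinostat shares were 7.86% ± 0.217 and 65.6% ± 0.571. The ratio of KCTD15 to KCTD1, per kb of merged exons, was 3.57, 3.35 and 3.08 in vehicle and 0.136, 0.104 and 0.118 with panobinostat. By coding length KCTD15 made up 92.7% ± 0.492 of the pair in vehicle and 31.3% ± 2.86 with panobinostat. The size of the ratio thus depends on the length used. By either length KCTD15 was the more abundant of the pair in vehicle and KCTD1 with panobinostat.

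**Figure D2:**
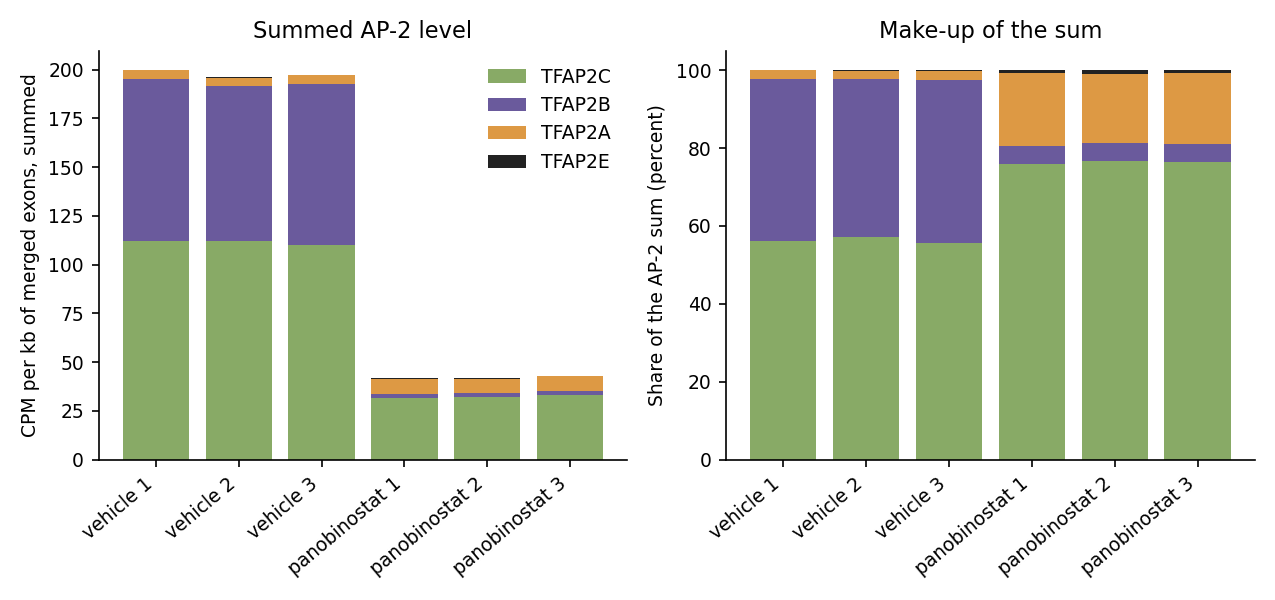
Left, the summed CPM per kb of merged exons of the AP-2 genes in each library, stacked by gene; right, the percent of that sum from each gene, with TFAP2D at 0. TFAP2B makes up at most 41.9% of the sum in a vehicle library and at most 4.74% in a panobinostat library, where TFAP2A reaches 18.6%.

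Genes beside the members on the chromosome were read for comparison, with neighbours taken from RefSeq. PKHD1, on the far side of TFAP2B from TFAP2D, rose from 2.64 ± 0.294 to 5.43 ± 0.910 CPM (edgeR adjusted p = 2.03e-06). BMP7, beside TFAP2C, had a log2 difference of -0.18 ± 0.13 that did not pass (edgeR adjusted p = 0.196). LSM14A, beside KCTD15, fell from 160 ± 6.82 to 117 ± 4.66 CPM (edgeR adjusted p = 3.56e-08), while CHST8, on its other side, had 0 counts in vehicle and 8 to 12 with panobinostat. TAF4B, beside KCTD1, fell from 42.6 ± 0.966 to 34.3 ± 1.17 CPM (edgeR adjusted p = 2.48e-05). NCDN and PSMB2, the neighbours of TFAP2E, had log2 changes of -0.13 and -0.44 and were both called lower. LOC100506207, beside TFAP2A, was not called, and LINC00518, FAM209B and PCAT18, beside TFAP2A, TFAP2C and KCTD1, had too few counts to test. The tested neighbours of TFAP2B, TFAP2C and KCTD15 had smaller log2 fold changes in size than those genes. TFAP2B and KCTD15 were picked because they fell, so nothing is read from this. For KCTD1 and its neighbour TAF4B the log2 fold changes were 0.31 and -0.31.

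Profiles most like each member were found by the root mean square difference of log2 CPM, centred on its mean, over the 6 libraries. With 2 groups of libraries this likeness mainly follows the size of the difference between groups. For TFAP2B the nearest genes were MUC5B, FXYD3 and IL16, at 0.10, 0.11 and 0.23 log2 units. For KCTD15 they were MOK, RXRG and B3GNT7, at 0.10, 0.19 and 0.21. For TFAP2C they were KIF2C, MKI67 and FANCD2, at 0.02 each. For TFAP2A they were ARNTL, AUH and LTA4H, at 0.02 to 0.03, and for KCTD1 RABEP1, YWHAB and SERINC3, at 0.005 to 0.02. For TFAP2E they were DSC2, LACC1 and ANKRD29, at 0.25 to 0.27.

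Cofactors of AP-2 proteins were mixed. Over all genes tested 41.8% were called higher and 41.0% lower, and these shares belong beside the counts of every list below. Of 12 cofactors tested, 3 rose and 7 fell, with a median log2 fold change of -0.28 against 0.01 over all genes tested. With upper quartile scaling, which moves the median of all genes by 0.12, 5 rose. CITED2, a coactivator that links AP-2 factors to the acetyltransferases EP300 and CREBBP, rose from 11.6 ± 1.24 to 319 ± 20.4 CPM, a log2 change of 4.78 ± 0.07 (edgeR adjusted p = 5.03e-17). KDM5B, a histone demethylase reported as a partner of TFAP2C, rose 1.38-fold to 474.5 ± 14.3 CPM, and WWOX, a binder of TFAP2C, 1.43-fold. CREBBP fell from 137 ± 3.10 to 93.0 ± 2.51 CPM, and EP300 was at 122 ± 1.5 and 124 ± 3.74 CPM and did not pass. YEATS4, a partner of TFAP2B, fell from 40.2 ± 3.06 to 20.1 ± 0.755 CPM. PARP1 (-0.60) and NPM1 (-0.67 on the log2 scale) were also called lower. NPM1 has many near-identical pseudogenes, so its counts are uncertain.

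Genes reported as AP-2 targets in melanoma or other cells, a list from general knowledge, went both ways, with 11 of the 17 tested called higher and 5 lower (median 0.36). Of those higher, KIT, ESR1 and RET had under 10 counts in every vehicle library and passed the low-count filter only through panobinostat, so they could only be called higher. Of the other 14 tested, 8 were called higher and 5 lower. ERBB2, a receptor kinase, fell from 71.7 ± 5.23 to 26.1 ± 1.09 CPM (edgeR adjusted p = 3.11e-13). Its relative ERBB3 had a log2 change of -3.09. MCAM and MMP2, genes of melanoma adhesion and invasion, fell to 175 ± 2.73 and 92.7 ± 4.08 CPM. F2R, the thrombin receptor, rose from 107.5 ± 1.74 to 364 ± 7.13 CPM (edgeR adjusted p = 5.55e-17). IGFBP5, a binder of insulin-like growth factors, rose from 48.9 ± 1.46 to 981 ± 32.9 CPM (edgeR adjusted p = 1.26e-20). EGFR rose 2.52-fold and CDKN1A, the cell cycle inhibitor p21, 2.37-fold. The list mixes genes that AP-2 factors are reported to activate and to repress, and the changes were not compared with those directions. Binding of AP-2 factors to these genes was not measured. CDH1, the epithelial cadherin, had 0 counts in vehicle and 1 to 3 with panobinostat and was not tested.

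The other KCTD proteins, which share the BTB domain and mostly serve as adaptors of the ubiquitin ligase CUL3, were set beside KCTD1 and KCTD15 together with CUL3 and its partner RBX1. Of 20 tested, 10 rose and 6 fell (median 0.12, the same with KCTD4 set at its floor of 3 counts). KCTD4 and KCTD16, both under 10 counts in every vehicle library, could only be called higher, and without them 8 of 18 rose. With upper quartile scaling 3 fell. KCTD11, a suppressor of Hedgehog signalling, rose from 11.4 ± 1.14 to 38.7 ± 1.03 CPM (edgeR adjusted p = 1.93e-13), and its relative KCTD21 from 6.84 ± 0.488 to 14.1 ± 0.282 CPM. KCTD17 rose 1.77-fold and TNFAIP1 1.21-fold. KCTD3 fell from 277 ± 9.59 to 141 ± 0.592 CPM and RBX1 from 35.2 ± 1.60 to 17.2 ± 0.656 CPM, while CUL3, at 109 ± 3.42 and 105 ± 0.394 CPM, did not pass. KCTD7 fell by 0.27 and KCTD20 by 0.16 on the log2 scale, the second a call lost with upper quartile scaling (-0.04). KCTD4, named after its counts were seen, had 0 counts in each vehicle library and 15, 12 and 15 with panobinostat. The difference of KCTD15 lay outside the range of the other KCTD genes that fell, and that of KCTD1 within the range of those that rose. KCTD15 was picked because it fell and the other KCTD genes were not, so nothing is read from its place.

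**Figure D3:**
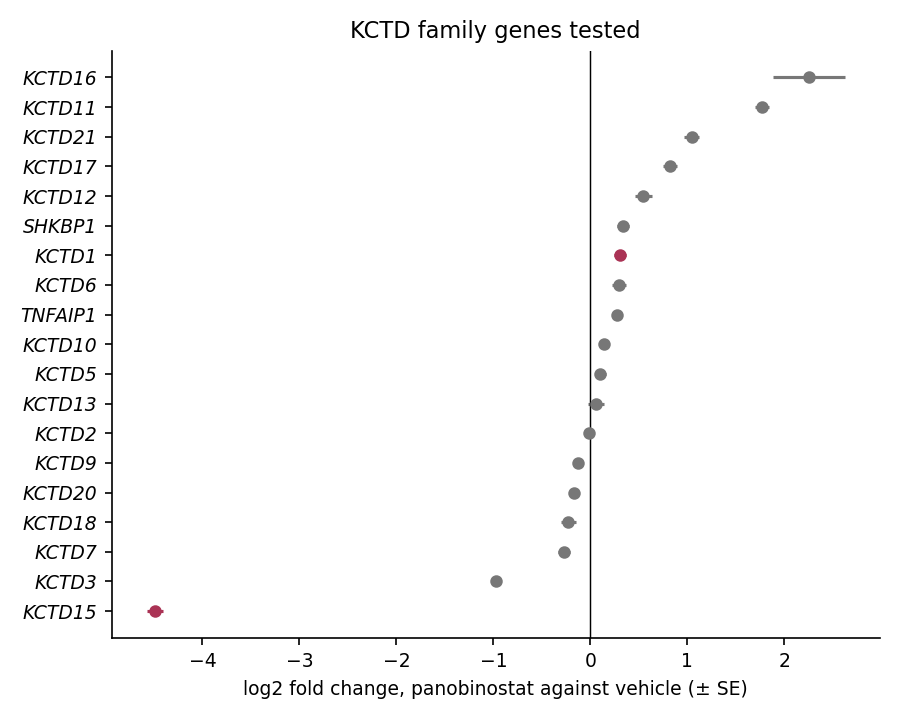
Log2 fold change ± SE of the KCTD family genes tested, with KCTD1 and KCTD15 in red and KCTD4, at 0 counts in vehicle, left out. KCTD15, picked because it fell, is at -4.49, and the next lowest, KCTD3, at -0.97.

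Of the factors that act with AP-2 in the neural plate border and crest, 10 of the 16 tested were called lower and 6 higher (median -0.80). The shares over all genes tested were 41.0% lower and 41.8% higher. The crest specifiers FOXD3, from 9.38 ± 0.371 to 2.37 ± 0.336 CPM, SNAI2, from 8.21 ± 0.223 to 2.36 ± 0.108 CPM, and TWIST1, from 19.3 ± 0.640 to 7.76 ± 0.570 CPM, fell with SOX5, which had a log2 change of -0.92. SOX9, which marks crest and cartilage precursors, rose from 0.252 ± 0.0421 to 10.2 ± 0.809 CPM (edgeR adjusted p = 6.62e-15). With 8, 10 and 10 counts in vehicle, SOX9 passed the low-count filter only through panobinostat and so could only be called higher. MSX2, a border homeobox gene, rose from 5.62 ± 0.368 to 39.2 ± 2.01 CPM (edgeR adjusted p = 8.26e-16). The nuclear receptors NR2F1 and NR2F2 rose 3.43-fold and 2.49-fold. The list thus holds changes in both directions.

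Factors and markers of surface ectoderm, the other embryonic tissue of AP-2 proteins, rose in 9 of 9 tested cases (median 2.46). Of these, 4 had under 10 counts in every vehicle library and so could only be called higher, and the other 5 tested were all called higher. A further 3 of the 12 listed (GRHL2, OVOL1 and KRT5) had too few counts to test. KRT5, a defining keratinocyte marker, had at most 4 counts in any library and KRT1 had 0. KLF4, a factor of epidermal differentiation, rose from 8.98 ± 0.408 to 49.3 ± 0.166 CPM and GATA3, a partner of TFAP2C in breast epithelium, from 2.11 ± 0.124 to 10.7 ± 1.02 CPM. KRT18, a keratin of simple epithelium whose pseudogenes make its count uncertain, rose 1.91-fold. KRT14, an epidermal keratin in the list of AP-2 targets, fell from 3.17 ± 0.321 to 0.779 ± 0.0921 CPM, so keratins did not share 1 direction.

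Melanocyte genes, several of which TFAP2A activates together with MITF, were split, 4 of the 9 tested being called higher and 4 lower (median -0.05). MC1R, the melanocortin receptor, fell from 14.2 ± 1.42 to 6.96 ± 0.570 CPM, OCA2, a melanosome membrane protein, from 4.65 ± 0.223 to 1.42 ± 0.184 CPM, and RAB27A, which moves melanosomes, from 11.8 ± 0.589 to 7.29 ± 0.526 CPM. MITF fell too, with a log2 change of -0.69. GPR143, the ocular albinism receptor, rose from 0.0528 ± 0.0244 to 1.13 ± 0.142 CPM, and MREG 1.58-fold. GPR143, under 10 counts in every vehicle library, could only be called higher. TYRP1, at 4, 10 and 12 counts in vehicle, also passed the low-count filter only with panobinostat libraries. PMEL rose from 0.628 ± 0.118 to 194 ± 9.46 CPM, a log2 change of 8.27 ± 0.09. PMEL overlaps CDK2 on the opposite strand and its count is uncertain for that reason. The part of CDK2 reads in the rise was not tested. A stricter filter, which required 5 CPM in at least 3 libraries and so left out GPR143 and TYRP1, a melanin enzyme at 0.235 ± 0.114 and 0.448 ± 0.113 CPM, gave 2 rises.

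**Figure D4:**
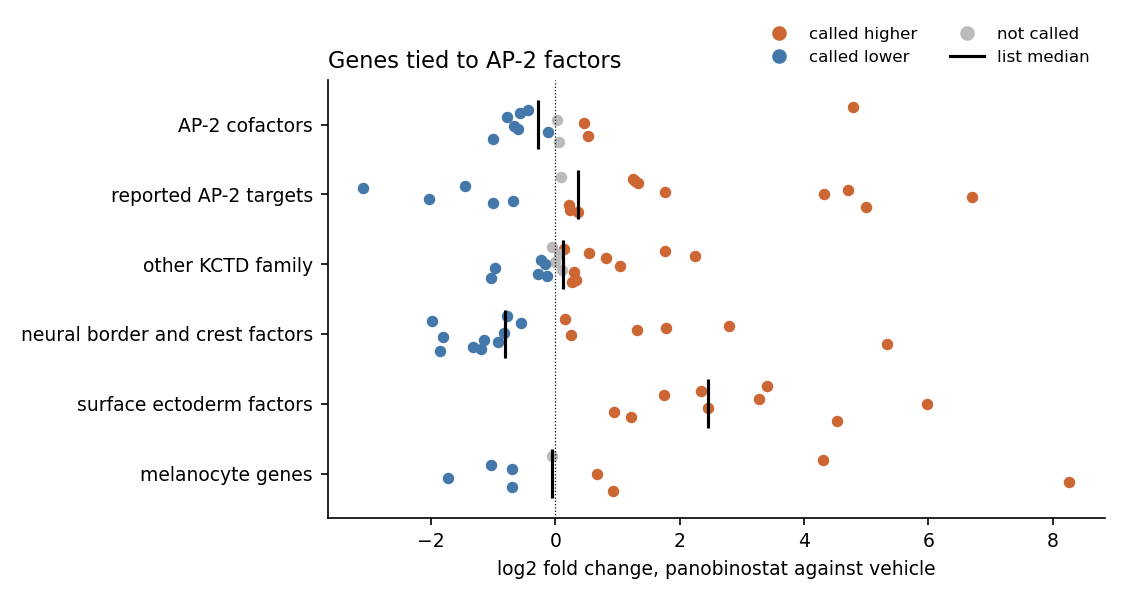
Log2 fold change of each tested gene of 6 lists, coloured by its edgeR call, with the list median as a bar and KCTD4, at 0 counts in vehicle, left out. Surface ectoderm genes are all to the right of 0, around a median of 2.46, and neural border and crest genes lie on both sides of 0.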

How the data were processed

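RNA of 6 A375 libraries was measured by sequencing, 3 in vehicle and 3 with 50 nM panobinostat, grouped by the labelled dose. The deposited table holds raw counts, whole reads per gene symbol with no normalization by the authors. Its name gives STAR as the aligner, and for its version, the genome build, annotation, library kit and strand setting no source used here gives a value. Spike-in lines (92, with 0 counts) were left out. The symbols 1-Mar and 2-Mar, altered by a spreadsheet, occur on more than 1 line and are not named. The members and lists were chosen with earlier results of these data known.

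Genes passing filterByExpr entered edgeR's robust quasi-likelihood F test on group after TMM scaling, with Benjamini-Hochberg adjustment over 15499 genes and a threshold of 0.05. SE is the log2 fold change divided by the root of F. P-values reflect the spread among these libraries alone, which could be technical. The steps were tested on simulated data. Per list, up to 4 genes per direction at 1 CPM or more are named by smallest adjusted p. Also named are the 3 nearest profiles (log2 CPM with prior count 2, genes at 5 CPM or more, no noncoding or clone symbols) and the nearest measured gene on each side. One gene that the rule would name is not reported here. Alternatives were scaling by RLE, by upper quartile or by library size, dropping the filter, a 5 CPM filter, DESeq2, limma-voom, a replicate block, prior count 2, and leaving out each library. Software was R 4.3.3, edgeR 4.0.16, limma 3.58.1, DESeq2 1.42.0, Python 3.11.15, Biopython 1.88 (global BLOSUM62 alignment) and BLAST 2.17.0 (shared runs of 50 bases). Exon lengths are from GENCODE 29.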

Additional observations from a re-analysis of the deposited data

How the results depend on the processing

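The members were chosen on this contrast, so the range of their fold changes over the alternatives describes the processing and supports nothing. None changed direction. TFAP2E had too few counts for the 5 CPM filter. The log2 fold change was -5.42 to -5.26 for TFAP2B, -1.83 to -1.67 for TFAP2C, 0.78 to 0.96 for TFAP2A, 0.84 to 1.45 for TFAP2E, 0.26 to 0.43 for KCTD1 and -4.60 to -4.37 for KCTD15. Upper quartile scaling and the 5 CPM filter each gave 5 AP-2 cofactors higher in place of 3 and 3 other KCTD family genes lower in place of 6, and the 5 CPM filter gave 2 melanocyte genes higher in place of 4. The log2 fold change of KCTD20 was no longer called with these settings (-0.04 and -0.07). The stricter filter leaves out GPR143 and TYRP1; otherwise the cause was not tested. With upper quartile scaling 57.3% of calls over all genes were higher, against 50.5%. With the replicate block the count of genes called higher was 6259 and the count of genes called lower 6150, and TFAP2B stood at -5.38. Libraries with the same number did not deviate together (correlations of -0.14 to -0.06), so no pairing by number was visible. Whether they were set up together cannot be told from these correlations. Ordering the genes by CPM without length, or per kb of coding sequence (an alternative added after the data were seen), changed the vehicle rank of 2 members, TFAP2B and TFAP2C. Depth limits TFAP2D and TFAP2E, the first not detected and the second resting on 6 to 30 counts per library.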
